A study of Mus musculus with 2 samples.

Results

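B cells of injured skeletal muscle were described here from single-cell RNA sequencing of mouse gastrocnemius. The cells were selected on measured values: at least 2 of Cd79a, Cd79b and Ms4a1 had to be detected, and Cd3e, Pdgfra, Cdh5 and C1qa had to be absent. The rule found 85 B cells among 13432 cells, 38 of 6354 in the WT library and 47 of 7078 in the KO library. The samples came from male C57BL/6J mice carrying both normal Gsdme alleles (WT) or lacking Gsdme in every cell (GSDME-KO), produced as littermates by crossing heterozygotes. Muscle was injured with 50 µL of 10 µM cardiotoxin (CTX), a snake venom toxin that kills muscle fibers, and was taken on day 14. Because the deletion was global, a difference in B cells could arise in any cell of the animal. Each genotype is 1 library, so no test between genotypes was possible. There were 5 mice per genotype, and how they were combined into 1 library was not stated in the sources used here. The age of these mice was not given in the sources used here.

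B cells detect antigen with a surface immunoglobulin that is coupled to the signaling chains CD79A and CD79B. A naive follicular B cell carries IgM and IgD together, recirculates through blood and lymphoid organs with the help of CCR7 and CXCR5, and presents antigen to helper T cells on MHC class II. After activation, some B cells switch to another heavy chain and become plasma cells, which stop displaying most B cell surface proteins and secrete antibody. In healthy skeletal muscle, B cells are rare.

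Depth was low and differed between classes of cells. B cells held a median of 2703 UMIs (unique molecular identifiers, each counting 1 captured RNA molecule) in WT and 2795 in KO, against 5740 and 5963 over all cells. The B cells summed to 125620 UMIs in WT and 189232 in KO. Levels below are CPM, the UMIs of a gene in these sums scaled to a common total of 1000000. All intervals are exact 95% intervals that cover counting error only, not differences between mice. The libraries shared 4 barcodes, none of them a B cell. Gsdme itself gave no check of the labels in these cells, with 1 UMI in WT B cells and 1 in KO B cells, so every direction between genotypes rests on the library labels.

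The rule's own genes describe the selection. Cd79a was read in 85 members, Cd79b in 76 and Ms4a1, which encodes CD20, in 69. All 3 genes were found in 60 members and exactly 2 in 25. Members with 3 genes had a median of 14 UMIs over the rule's genes, and members with 2 had a median of 9. Just outside, 319 cells held only 1 of the genes, with a median of 1 UMI, and 6 of them had Ighd. Another 18 cells passed the marker count but were left out for Cd3e (1 cell), Pdgfra (4 cells), Cdh5 (6 cells) or C1qa (8 cells), so at least 1 cell held more than 1 of these.

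Markers that the rule did not use were carried together by nearly all members. Of 12 such genes, the members carried a median of 8, and 82 of 85 cells carried at least 4. No T cell, NK cell or dendritic cell reached 4 (classes picked by their own marker genes, with 144, 28 and 136 cells). Of 3064 cells of the Pdgfra class, 3 reached 4, the highest with 8. Pax5, the factor that holds cells in the B lineage, was read in 51.8% of members and 0.0653% of Pdgfra cells, a fibroblast class that should lack it. With each cell thinned to 1000 UMIs the Pax5 shares were 17.6% and 0%. Ly6d was read in 77.6% of members and 0.131% of Pdgfra cells (thinned, 57.6% and 0.0333%). Ebf1 was not a specific marker in this tissue, since its 94.1% in B cells stood beside 92.1% in Pdgfra cells. Pdgfra cells had a higher median depth, 8371 UMIs, than B cells.

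**Figure D1:**
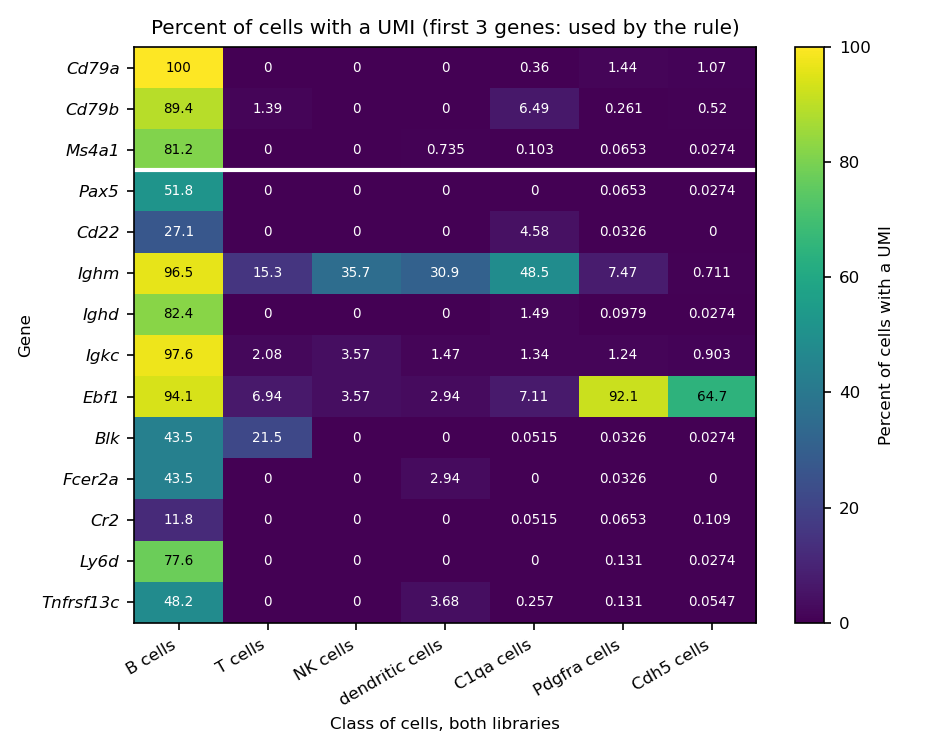
Heat map of the percent of cells with a UMI for 14 genes (rows) in 7 classes of cells (columns), both libraries pooled, with the first 3 genes used to select the B cells. Pax5, Ighd and Ly6d are read in 51.8% to 82.4% of B cells and in at most 1.49% of each other class, while Ebf1 is also high in Pdgfra and Cdh5 cells and Ighm is read in 48.5% of C1qa cells.

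RNA of other cell types was sparse in B cells. The rule had removed cells with Cd3e, Pdgfra, Cdh5 or C1qa, so the low values are in part set by the selection. Of the T cell list, 8 of 11 genes were at 0, and the list summed to 15.9 CPM in WT and 31.7 CPM in KO, against 142 and 150 CPM in all other cells. Of the NK list, 8 of 9 genes were at 0. Macrophage genes summed to 63.7 CPM in WT and 74.0 CPM in KO, against 2837 and 3144 CPM elsewhere. Fibroblast genes summed to 923 CPM in WT and 782 CPM in KO, against 38795 and 38653 CPM in other cells. No gene of the fibroblast list was at 0 in B cells, and 4 WT and 9 KO members held at least 5 fibroblast UMIs. The part of this RNA in the levels below was not tested.

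The 25 genes that led in B cells over all other cells included immunoglobulin genes, receptors and regulators of B cells, and describe the selected cells. Igkv1-117, Igha, Jchain and Iglv1 were among them although each was read in only 2 to 4 members. Fcmr, the receptor for the Fc part of IgM, stood at 467 CPM in B cells and 0.262 CPM elsewhere. Vpreb3, a chaperone-like protein of the surrogate light chain family, stood at 327 CPM against 0.199 CPM. Fcer2a, the low-affinity IgE receptor CD23 of follicular B cells, stood at 241 CPM against 0.168 CPM. The B cell activating factor receptor Tnfrsf13c, on which mature B cells depend for survival, stood at 226 CPM against 0.451 CPM. Pou2af1, a coactivator that works with octamer-binding factors on B cell promoters, stood at 184 CPM against 0.367 CPM. Blk, a B cell kinase of the Src family, stood at 206 CPM against 0.703 CPM. It was also read in 21.5% of T cells.

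Promoters of these leading genes were searched because octamer-binding factors and their coactivator Pou2af1 act there in B cells. RefSeq promoters (mouse GRCm38.p6, 250 bases before the start of the gene to 50 after) were found for 10 of the 25 leading genes, with 12 entries. The octamer ATGCAAAT, read on both strands, was in 1 of the 10 genes, Vpreb3, and in 1.74% of the 32851 promoters in the table. Absence of a match says only that these letters are not in the window. The Vpreb3 promoter is shown for its octamer, which is in capitals and starts 45 bases before the start of the gene on the opposite strand, and the Cd79a promoter for comparison, with no match. Vpreb3 lies on the plus strand at chr10:75948050-75948349 and Cd79a on the plus strand at chr7:24897247-24897546.
Vpreb3 promoter: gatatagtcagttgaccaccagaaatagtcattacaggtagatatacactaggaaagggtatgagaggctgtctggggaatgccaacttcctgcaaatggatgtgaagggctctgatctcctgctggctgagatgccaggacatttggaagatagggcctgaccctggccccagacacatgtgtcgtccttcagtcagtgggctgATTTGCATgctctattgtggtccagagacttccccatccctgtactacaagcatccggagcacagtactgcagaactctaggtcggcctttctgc
Cd79a promoter: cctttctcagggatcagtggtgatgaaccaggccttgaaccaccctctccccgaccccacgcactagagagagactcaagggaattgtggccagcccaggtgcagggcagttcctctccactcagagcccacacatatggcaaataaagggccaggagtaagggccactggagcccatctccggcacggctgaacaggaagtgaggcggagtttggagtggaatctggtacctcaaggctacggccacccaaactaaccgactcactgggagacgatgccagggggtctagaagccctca

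The immunoglobulin genes divided the 85 cells into a large IgM group and 3 cells that stood apart. Ighm was read in all 38 WT members and in 44 of 47 KO members. Of the 82 cells with Ighm, 70 also had Ighd (85.4%), in 31 of 38 WT cells and 39 of 44 KO cells. A switched heavy chain, Igha or Ighg2b, was read in 1 of the 82. Ighg1, Ighg2a, Ighg2c, Ighg3 and Ighe had no values in these data, so switching to them could not be read. The 82 cells were also chosen for Ighm. Within these limits, IgM together with IgD, the pair found on naive B cells, was the commonest heavy chain pattern. The median cell held 11.5 Ighm UMIs in WT (range 2 to 59) and 10.5 in KO (2 to 47), with wide overlap. Median Ighd was 2.5 UMIs in WT and 2 in KO.

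Light chains were mostly kappa. Within the IgM group, Igkc exceeded the sum of Iglc1, Iglc2 and Iglc3 in 75 of 82 cells. The sum of the lambda genes exceeded Igkc in 7 cells, 1 in WT and 6 in KO. Igkc was absent in 2 cells, both KO, and 1 of these held 21 Iglc1 UMIs and 10 Ighm UMIs. Lambda UMIs were nevertheless read in 72 of 82 cells, with a median of 3 per cell, and 31 cells held at least 5 UMIs of each light chain. The constant genes of the lambda locus are close copies, so the split of reads among them is uncertain. Iglc1 summed to 39 UMIs in WT (310 CPM) and 132 in KO (1019 CPM) in the IgM group, a log2 ratio of 1.71 (1.19 to 2.27). A single KO cell held 42 of the Iglc1 UMIs. Without it the log2 ratio was 1.25 (0.69 to 1.83). In the IgM group, 4 KO cells held 42, 27, 21 and 20 Iglc1 UMIs, and 1 WT cell held 27 of the 39 WT UMIs. The ratio thus rests on few cells, and its interval covers only the counting of UMIs. Only 7 WT and 16 KO members had any Iglc1 UMI, and 1 of these KO members had no Ighm.

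**Figure D2:**
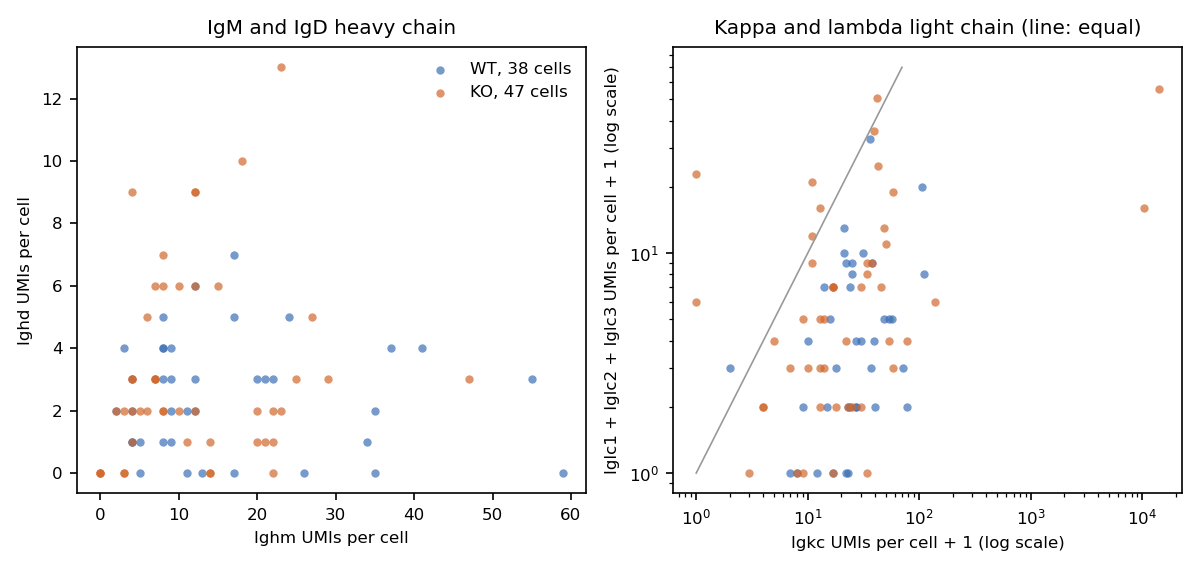
Immunoglobulin UMIs per B cell, with 1 point per cell and WT in blue and KO in orange. Left, Ighd against Ighm on linear axes, with 70 of the 82 Ighm cells above 0 for Ighd. Right, Igkc against the sum of Iglc1, Iglc2 and Iglc3 on log axes with 1 added and a line at equality, with 2 KO cells at over 10000 Igkc UMIs far from the rest.

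The 3 cells without Ighm were all KO. The first held 30009 UMIs, of which 14074 were Igkc, 4483 Igha and 2432 Jchain, and the second held 22295 UMIs, of which 10346 were Igkc, 3105 Igha and 1618 Jchain. Igkc, Igha and Jchain made up 69.9% and 67.6% of their RNA. Jchain encodes the chain that joins IgA or IgM units for secretion. Both cells read Xbp1, the driver of secretory expansion (29 and 30 UMIs), Sdc1, the plasma cell surface protein CD138 (12 and 8 UMIs), and Prdm1 (1 and 4 UMIs). Neither read Ms4a1, Pax5 or Ighd. Txndc5 (33 and 14 UMIs), Tent5c (5 and 25 UMIs), Derl3 (9 and 3 UMIs) and Fkbp11 (2 and 2 UMIs) were also read in both. Igha, Jchain, Xbp1 and Sdc1 are known from plasma cells that secrete IgA. Mzb1, another plasma cell gene, was at 0 in both cells, so they are called Igha cells here. Both entered the selection through Cd79a and Cd79b. The third cell held 7362 UMIs, with 1 Cd79a UMI, 1 Ms4a1 UMI, 2 Igkc UMIs, 18 fibroblast UMIs, 87 Cxcl1 UMIs and 69 Cxcl2 UMIs, and no Igha or Jchain.

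Over the whole series, 5 cells held at least 10 Jchain UMIs, and no other cell held more than 1. All 5 were KO. Besides the 2 members, 1 held a single marker gene of the rule, 1 held Cd3e and 1 held Pdgfra. The largest of these had 32976 UMIs, with 15387 of Igkc and 4777 of Igha. No such cell was found among the 6354 cells of the WT library.

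The 2 Igha cells held 27.6% of all KO B cell UMIs, which lowered the CPM of other genes in KO. Values between genotypes are therefore given for all 85 cells and for the 82 cells with Ighm, a subset chosen after seeing the data. Among 1473 genes with at least 30 UMIs over all B cells, 3.19% were at least 2-fold higher in KO (47 genes) and 9.84% at least 2-fold lower (145 genes), and the median log2 ratio was -0.31. Among 1311 genes in the 82 cells, 4.12% were at least 2-fold higher in KO (54 genes) and 3.81% at least 2-fold lower (50 genes), with a median of -0.01. Ribosomal protein genes, 76 with at least 30 UMIs, showed the same shift, with a median of -0.34 in all cells and -0.05 in the 82. They made up 26.8% of UMIs in WT B cells and 26.3% in the KO cells with Ighm.

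B cells were rare in both libraries. They made up 0.598% of WT cells (0.424 to 0.820) and 0.664% of KO cells (0.488 to 0.882). The difference, KO minus WT, was 0.066 percentage points (-0.217 to 0.345). With the 82 cells the KO share was 0.622% and the difference 0.0236 points (-0.256 to 0.298). Among B, T and NK cells together, B cells were 31.9% in WT (38 of 119) and 34.1% in KO (47 of 138), with a difference of 2.13 points (-9.94 to 14). Requiring all 3 marker genes left 30 cells in each library, 0.472% in WT and 0.424% in KO, which turned the sign of the difference.

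Receptor genes of B cell identity numbered 14 in the list, of which 10 had at least 30 UMIs. The genes of the rule, Cd79a, Cd79b and Ms4a1, are 3 of these 10, and their ratios are not read here because detection of them was required. Of the other 7, none was 2-fold higher or lower in the 82 cells, with a median log2 of 0.10. In all 85 cells 1 was 2-fold lower, Cd72, an inhibitory coreceptor, beside 9.84% of all genes. Cd72 had 39 UMIs in WT and 22 in KO. Its log2 ratio was -1.42 in all cells and -0.87 (-1.69 to -0.08) in the 82. Cd37, a tetraspanin of B cells, had 64 UMIs in WT (509 CPM) and 106 in KO (560 CPM), and its log2 ratio was 0.14 in all cells and 0.66 (0.19 to 1.13) in the 82.

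Signaling genes downstream of the B cell receptor were all read, with a UMI for each of the 25 listed. Syk, the kinase that starts the cascade, was read in 56 of 85 cells, at 470 CPM in WT and 254 CPM in KO. Bank1, a B cell scaffold, was read in 50 cells, at 303 CPM in WT and 248 CPM in KO. Of 14 genes with at least 30 UMIs, none was 2-fold higher in KO and 2 were 2-fold lower over all cells, the adaptors Blnk and Bcl10, each with 34 UMIs in WT and 22 in KO. The share of all genes at least 2-fold lower was 9.84%. In the 82 cells Blnk and Bcl10 stood at a log2 ratio of -0.96 (-1.87 to -0.10), and none of the 13 genes with at least 30 UMIs passed 2-fold. The list median was -0.33 over all cells and 0.12 in the 82.

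Transcription factors of the lineage were read widely. Ebf1, which starts the B cell program with Pax5, was read in 80 of 85 cells, at 1903 CPM in WT and 1247 CPM in KO. Ets1 was read in 92.9% of cells and Mef2c in 75.3%. Of 16 factors with at least 30 UMIs, none was 2-fold higher in KO over all cells and 2 were 2-fold lower, Spi1 (20 and 10 UMIs) and Spib (33 and 19 UMIs), related factors of the Ets family. This is near the 9.84% of all genes that were at least 2-fold lower. In the 82 cells only Spi1 passed, at a log2 ratio of -1.04 (-2.30 to 0.12), an interval that includes 0, and Spib stood at -0.84 (-1.74 to 0.02). The list median in the 82 cells was 0.15.

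The mature subsets of B cells could be told apart only in part at this depth. Follicular genes were the clearest. Fcer2a was read in 18 of 38 WT cells (255 CPM) and 19 of 47 KO cells (233 CPM). Klf2, a factor that keeps naive lymphocytes recirculating, had 67 UMIs in WT (533 CPM) and 137 in KO (724 CPM), with a log2 ratio of 0.44 in all cells and 0.99 (0.56 to 1.43) in the 82. Klf2 was not particular to B cells, at 1758 CPM in WT and 1946 CPM in KO Cdh5 cells. It was lower in KO in 2 of the 6 other classes and stood at 0.61 in Pdgfra cells. Cd55, a complement inhibitor, had 40 UMIs in WT (318 CPM) and 107 in KO (565 CPM), with 0.83 in all cells and 1.31 (0.77 to 1.87) in the 82. It was the 1 of 8 follicular genes past 2-fold in the 82 cells, where 4.12% of all genes were at least 2-fold higher. The median over those 8 was -0.02 in all cells and 0.53 in the 82.

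Genes of other B cell states were read in part. Of 10 marginal zone genes, 9 had a UMI and 2 had at least 30. Of these 2, 1 was at least 2-fold lower in KO, over all cells and in the 82. The shares of all genes at least 2-fold lower were 9.84% and 3.81%. Plac8 was the gene of higher level among the 2, at 629 CPM in WT and 661 CPM in KO. Cr2, the complement receptor high on marginal zone B cells, was read in 10 cells and Cd9 in 8. Of 12 B-1 genes, 10 had a UMI, and 3 that many cell types express had at least 30. These were Vim (724 CPM in WT and 634 CPM in KO), S100a6 (342 and 190 CPM) and Ahnak (310 and 206 CPM). Zbtb32 and Itgam had no UMI and Cd5 had 1. Of 5 age-associated genes, 2 had a UMI and 1 had at least 30, with a log2 ratio of 0.85 over all cells and 0.56 in the 82. Tbx21 and Itgax of that list had none in 314852 UMIs, which allows up to 11.7 CPM by the upper end of the exact interval. Of 10 germinal center genes, 6 had a UMI and none reached 30. Vpreb3 was the only gene of the B precursor list with at least 30 UMIs, at 68 UMIs in WT and 35 in KO, and its log2 ratio in the 82 cells was -1.23 (-1.90 to -0.59).

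A single WT cell carried genes of a dividing precursor. It held 7011 UMIs, with 122 UMIs of the cell cycle list (1.74% of its RNA), among them all 28 Ube2c UMIs of the B cells, 8 of Top2a and 5 of Mki67. It also held 20 Vpreb3 UMIs, 4 of Lef1, 1 of Vpreb1 and 1 of Igll1, which encodes part of the surrogate light chain of pre-B cells. It had 17 Ighm and 11 Igkc UMIs but no Ighd or Ms4a1 and 5 Cd74 UMIs. No other member held 5 or more UMIs of 8 mitosis genes. Without this cell Vpreb3 had 48 UMIs in WT and 30 in KO, and its log2 ratio was -0.81 (-1.51 to -0.12). Ube2c was then at 0 in both libraries.

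Of 11 antigen presentation genes with at least 30 UMIs, 2 were at least 2-fold higher in KO within the IgM group, H2-Oa and H2-DMb2, and the ratios ran from 0.11 for Cd74 to 2.28 for H2-Oa. Cd74, the invariant chain that escorts MHC class II, was in all 85 cells. Its level was 11686 CPM in WT and 9095 CPM in KO over all cells, and 12581 CPM in the 44 KO cells with Ighm, a log2 ratio of 0.11 (0.0038 to 0.21). H2-Aa, the MHC class II alpha chain, had 377 UMIs in WT (3001 CPM) and 727 in the KO cells with Ighm (5611 CPM), a log2 ratio of 0.90 (0.72 to 1.09). H2-Ab1 had 416 UMIs (3312 CPM) and 761 UMIs (5873 CPM), a log2 ratio of 0.83 (0.65 to 1.003). H2-Eb1 had 386 UMIs (3073 CPM) and 567 UMIs (4376 CPM), a log2 ratio of 0.51 (0.32 to 0.70). Over all 85 cells the ratios of H2-Aa, H2-Ab1 and H2-Eb1 were 0.36, 0.30 and -0.02.

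The peptide editors of the pathway had fewer UMIs. H2-Oa, a chain of the inhibitor of peptide loading, had 6 UMIs in WT (47.8 CPM) and 30 in KO (232 CPM with Ighm), a log2 ratio of 2.28 (0.99 to 3.83). It was read in 5 WT and 19 KO cells. H2-Ob, its partner, had 49 UMIs (390 CPM) and 101 UMIs (780 CPM), a log2 ratio of 0.999 (0.49 to 1.52). H2-DMb2, of the loading catalyst, had 36 and 81 UMIs, a log2 ratio of 1.13 (0.54 to 1.73). Of 11 list genes with at least 30 UMIs, 2 were at least 2-fold higher in the 82 cells and none lower, with a median of 0.82, and over all 85 cells 1 was higher and none lower, with a median of 0.30. The medians over all genes were -0.01 and -0.31, and the shares of all genes at least 2-fold higher were 4.12% and 3.19%.

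Single cells overlapped widely between the libraries for these genes. In the IgM group, H2-Ab1 per 10000 UMIs of the cell ran from 0 through a median of 32.9 to 108 in WT, and from 0 through 56.1 to 118 in KO. H2-Aa had a median of 34.2 in WT and 59.6 in KO, and H2-Eb1 36.9 and 45.8. Cd74 had a median of 135 in WT and 128 in KO. In C1qa cells, the macrophage class, H2-Ab1 stood at 6083 CPM in WT and 7848 CPM in KO, a log2 ratio of 0.37, and in dendritic cells the ratio was 0.15. In Pdgfra and Cdh5 cells it was -0.17 and -0.22. In T cells H2-Ab1 stood at 48.7 CPM in WT and 820 CPM in KO, and in NK cells at 0 UMIs in WT and 242 UMIs in KO (2919 CPM). A higher KO value of H2-Ab1 was thus also read in T and NK cells, classes not known for high MHC class II in mice. KO T cells also held 57 UMIs of Cd209a, against 0 in WT T cells. Cd209a was the only gene of the dendritic list with at least 30 UMIs in T cells. In B cells that list held 1 UMI in each library. The part of dendritic cell RNA in the T and NK cell values, and in the B cell values, was not tested. These are 1 library each, and whether the differences exceed those between mice was not tested.

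**Figure D3:**
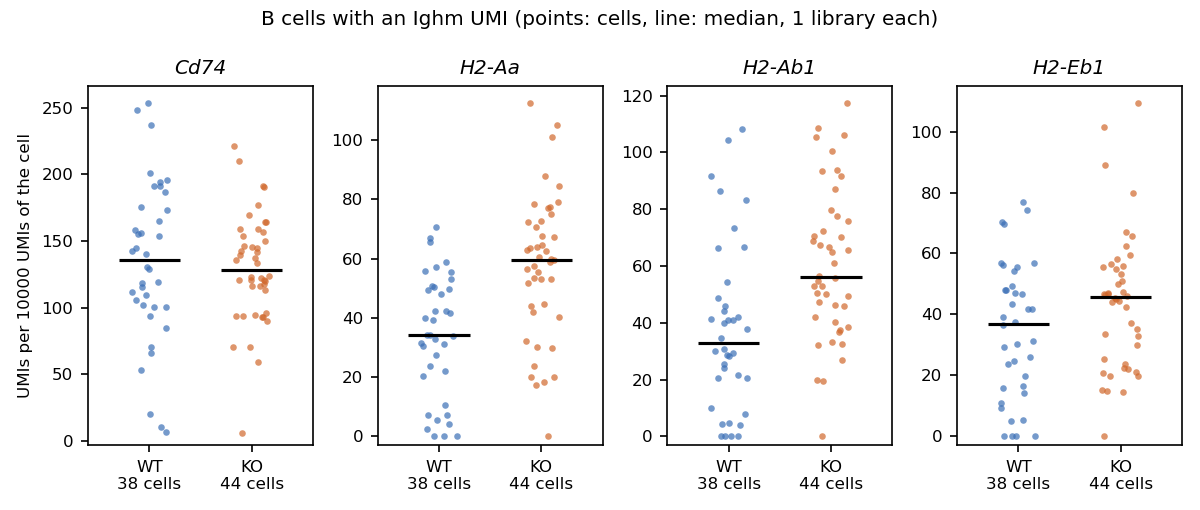
Cd74, H2-Aa, H2-Ab1 and H2-Eb1 in UMIs per 10000 UMIs of the cell, for the 38 WT and 44 KO B cells with an Ighm UMI (points), with the median as a black line and a separate linear axis per gene. The H2-Ab1 medians are 32.9 in WT and 56.1 in KO, the Cd74 medians 135 and 128, and the points of both libraries overlap for every gene.

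Costimulation was low. Of 12 genes, 10 had a UMI and none reached 30. Cd86 was read in 13 of 85 cells, at 63.7 CPM in WT and 63.4 CPM in KO. Cd40 had 10 UMIs in WT and 2 in KO. In dendritic cells Cd86 stood at 246 CPM.

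Homing receptors were those of recirculating lymphocytes. Ccr7 was read in 61 of 85 cells, at 621 CPM in WT and 465 CPM in KO, with a log2 ratio of -0.42 over all cells and 0.13 (-0.33 to 0.59) in the 82. Cxcr5, the receptor that guides B cells into follicles, was read in 22 cells, at 103 CPM in WT and 89.8 CPM in KO. Itga4 had 16 UMIs in WT (127 CPM) and 66 in KO, and 44 without the 3 cells lacking Ighm (340 CPM), a log2 ratio of 1.41 (0.56 to 2.34). P2ry10 had 11 and 44 UMIs, a log2 ratio of 1.96 (0.98 to 3.06). In the 3 other classes with at least 30 P2ry10 UMIs it was also higher in KO, at 0.86 in T, 1.62 in NK and 0.62 in dendritic cells. Itga4 was lower in KO in 2 of the 6 other classes and stood at 2.74 in NK cells. Itga4 and P2ry10 were the 2 of 8 homing genes past 2-fold in the 82 cells, with none lower and a median of 0.55. Over all genes in these cells 4.12% were at least 2-fold higher, and the median was -0.01. Ccr2 and Cxcr3, receptors for inflamed tissue, had no UMI.

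Survival genes were few. Tnfrsf13c was read in 25 of 38 WT cells (326 CPM) and 16 of 47 KO cells (159 CPM). Its log2 ratio was -1.04 over all cells and -0.50 (-1.23 to 0.22) in the 82. Of 3 survival receptors with at least 30 UMIs it was the only 1 past 2-fold over all cells, and none passed in the 82. Mcl1 was the BCL2 family gene of highest level, at 756 CPM in WT and 576 CPM in KO, while Bcl2 had 6 UMIs in all. Tnfsf13b, the ligand of Tnfrsf13c, had no UMI in B cells and stood at 8.08 CPM in Pdgfra cells.

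Genes of the GSDME and IL-18 axis that the study centered on were near the limit of detection. Of 12 genes, 8 had a UMI in B cells and none reached 30. Il18, Il18r1 and Il18rap had none, which allows up to 11.7 CPM, while Il18r1 stood at 178 CPM in T cells and 194 CPM in NK cells. Of 17 cytokine genes only Ltb, which encodes lymphotoxin beta, and Tgfb1 had at least 30. Ltb had 39 UMIs in WT (310 CPM) and 78 in KO (412 CPM), with a log2 ratio of 0.41 over all cells and 0.96 (0.38 to 1.55) in the 82. Tgfb1 had 39 and 30 UMIs, with -0.97 and -0.42 (-1.16 to 0.30). Il10 had none.

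Stress and early response genes did not move as 1 block. In the 82 cells, 3 of 19 early response genes were 2-fold higher in KO (Jun, Ier5 and Klf6), 2 were lower (Klf4 and Ppp1r15a), and the median was -0.23. The shares of all genes in these cells were 4.12% higher and 3.81% lower. Klf6 had 23 UMIs in WT and 55 in KO, a log2 ratio of 1.21 (0.49 to 1.98), with 19 of these UMIs in 1 cell, while in all 6 other classes it was lower in KO, with ratios from -0.52 to -0.02. Jund had 279 and 174 UMIs, a log2 ratio of -0.73 (-1.01 to -0.45). Over all cells 2 of 21 were higher and 6 lower, with a median of -0.38, beside 3.19% and 9.84% of all genes.

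Of 10 heat shock genes in the 82 cells, 3 were 2-fold higher in KO, none was lower, and the median was 0.54. Of all genes in these cells, 4.12% were at least 2-fold higher. Hspa1b had 6 UMIs in WT and 111 in KO, a log2 ratio of 4.16 (2.997 to 5.64), but 94 of the KO UMIs lay in 1 cell. Without that cell Hspa1b had 6 and 17 UMIs, a log2 ratio of 1.498 (0.09 to 3.13). Hspa1a had 30 of its 44 KO UMIs in the same cell and then stood at 1.48 (-0.07 to 3.31). The third gene past 2-fold, Hsph1, had 10 and 30 UMIs and a log2 ratio of 1.54 (0.47 to 2.74), and without the KO cell that held 11 of them it stood at 0.92 (-0.26 to 2.18), under 2-fold. Hspa1b was higher in KO in all 6 other classes and at least 2-fold higher in 5 of them. Hspa8 stood at 0.49 (0.21 to 0.78). Higher Hspa1b was thus not particular to B cells, and its part in the other differences was not tested.

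Among the genes with the most extreme ratios over all 85 cells, the 10 highest in KO each had over 50% of their UMIs in 1 cell. Igha (7588 UMIs), Jchain (4050 UMIs), Igkc, Iglv1 (61 UMIs), Igkv1-117 (91 UMIs) and Ighg2b (35 UMIs) had most of their UMIs in the Igha cells. Igha and Jchain had no UMI in WT. With WT set to a floor of 3 UMIs their log2 ratios were 10.71 and 9.81, which are not lower limits. Cxcl2 had 69 of 74 UMIs in the third cell without Ighm, and Cxcl1 had 87 of 100 there. Asb5 had 30 of 31 UMIs in 1 cell.

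In the 82 cells the highest ratios outside heat shock and immunoglobulin genes were those of Btla and H2-Oa, both at 2.28, followed by P2ry10. Btla, an inhibitory receptor of lymphocytes, had 5 UMIs in 4 WT cells and 25 UMIs in 16 KO cells, with an interval of 0.87 to 4.02. In dendritic cells, the only other class with at least 30 Btla UMIs, the log2 ratio was 1.31 (0.17 to 2.59). The next were Dnajc9 and Mettl23 (7 and 26 UMIs each, log2 1.85), and Cmah and Lamtor2 (8 and 28 UMIs each, log2 1.76). For these genes no cell held over 16.7% of the UMIs, so the differences were spread over cells. Cmah makes the sialic acid Neu5Gc, whose loss from the surface accompanies germinal center activation.

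The lowest ratios in the 82 cells began with Lgals1, with 38 UMIs in WT and 6 in KO (log2 -2.71), but 34 of the WT UMIs lay in 1 cell of 14575 UMIs. Without it Lgals1 had 4 and 6 UMIs. That cell had no Ighd, 59 Ighm UMIs, 8 Cd9 UMIs and 21 fibroblast UMIs. Hexim1, an inhibitor of transcription elongation, had 30 UMIs in WT and 6 in KO (log2 -2.37), spread over cells with at most 3 in each. Brd1 (26 and 8 UMIs, log2 -1.75), Nasp (23 and 8 UMIs, log2 -1.57) and Cux1 (25 and 9 UMIs, log2 -1.52) were likewise spread. Mrpl20 had 23 and 7 UMIs and Ldha 35 and 12. Ppp1r14b had 39 and 11 UMIs and Ppp1r15a 26 and 6, and the cell of 14575 UMIs held 17 and 11 of the WT UMIs. Over all 85 cells the 10 lowest also held Dag1 (20 of 24 WT UMIs in that cell), Pdcd4, Rgs2, Smc4 and Arl5c.

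Lars2, a mitochondrial leucyl-tRNA synthetase, was the most abundant of the low genes, with 696 UMIs in WT (5541 CPM) and 225 in the KO cells with Ighm (1737 CPM), a log2 ratio of -1.67 (-1.90 to -1.45). A single WT cell held 133 of these UMIs, and without it the ratio was -1.43 (-1.66 to -1.21). It was not particular to B cells. In all 6 other classes Lars2 was at least 2-fold lower in KO, with log2 ratios from -1.68 in T cells to -1.23 in dendritic cells. Hexim1 and Brd1 were lower in KO in all 5 other classes that had at least 30 UMIs.

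**Figure D4:**
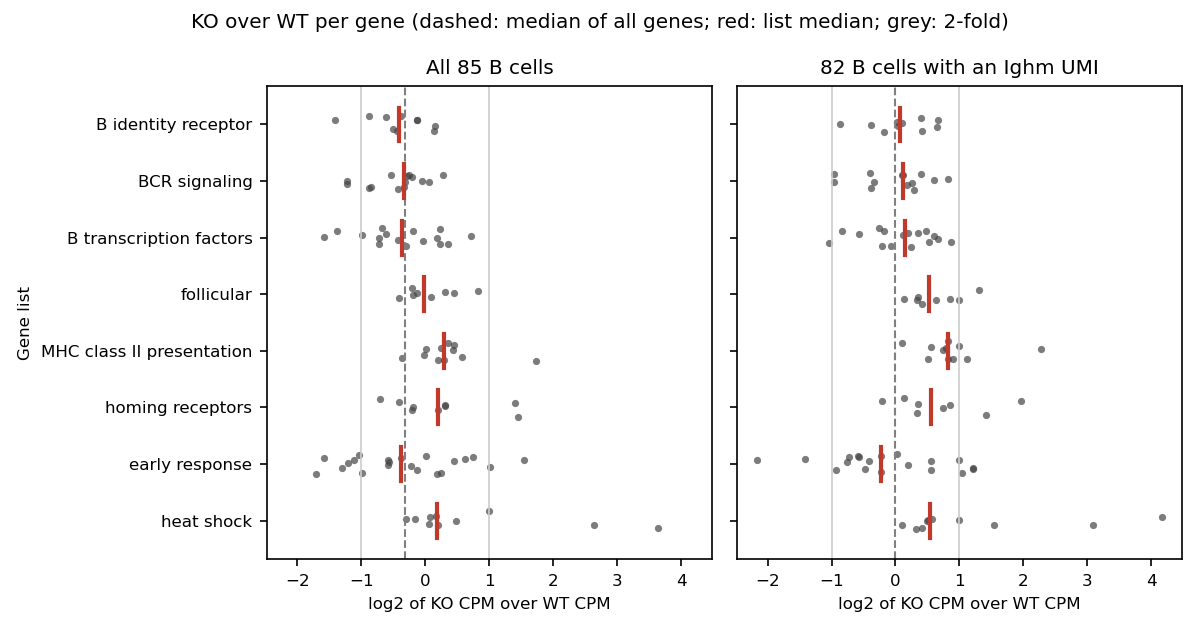
Log2 of KO CPM over WT CPM for single genes with at least 30 UMIs (points), grouped by gene list (rows), for all 85 B cells (left) and the 82 with an Ighm UMI (right). Red bars are list medians, the dashed line is the median of all genes and grey lines mark 2-fold. The MHC class II median is 0.30 on the left and 0.82 on the right, and the all-gene median moves from -0.31 to -0.01.

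Against T cells, B cells were at least 2-fold higher in both libraries for 4.47% of 4875 genes compared (218 genes) and at least 2-fold lower for 11.1% (541 genes). The transcription factor list had 13 of 19 compared genes higher and none lower, and the MHC class II list 11 of 11 higher. Of 19 B cell receptor signaling genes compared, 8 were higher than in T cells and 2 lower, Ptpn22 and Cd5. Syk, among the higher, stood at 470 and 254 CPM, against 2.87 and 4.87 CPM in T cells of WT and KO. Homing genes split. Of 17 compared, 3 were higher in B cells, among them Ccr7 and Cxcr5, while 8 were lower, among them Selplg, an adhesion ligand of leukocytes (55.7 and 47.6 CPM in B cells, 505 and 438 CPM in T cells). Heat shock genes were lower in B cells for 6 of 11. Of 8 BCL2 family genes compared, 3 were lower, the anti-death genes Bcl2, Bcl2a1b and Bcl2a1d, and none was higher. Mcl1 was not among the 3, at 756 and 576 CPM in B cells and 510 and 416 CPM in T cells of WT and KO.

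Against NK cells the shares were 7.06% higher (162 of 2293 genes) and 7.94% lower (182 genes). Of the identity list, 7 of 7 compared genes that the rule did not use were higher in B cells. With 10 WT and 18 KO NK cells, most genes of low level could not be compared. Homing genes were lower in B cells for 7 of 15 and higher for 3.

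Against dendritic cells the shares were 12.6% higher (668 of 5310 genes) and 11.8% lower (629 genes). Of 13 MHC class II genes, 8 were lower in B cells in both libraries, including Cd74, with log2 ratios of -1.11 in WT and -1.44 in KO, and H2-Ab1, with -1.87 and -1.72. Only H2-Ob (1.94 and 2.08) and H2-DMb2 (1.15 and 2.32) were higher in B cells. Costimulation genes were lower for 4 of 7 and early response genes for 11 of 31, among them Fos and Atf3. Most of the pathway was thus lower in B cells than in dendritic cells.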

How the data were processed

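Single cells of gastrocnemius from 1 WT and 1 GSDME-KO library were captured with a 10x Chromium 5′ kit. The labels name Cell Ranger 2.1.1 and the mm10 build, while the study's methods name a later Cell Ranger. The authors removed doublets with DoubletFinder, removed cells of high mitochondrial share and deposited values as the natural log of 1 plus UMIs per 10000 UMIs of the cell, for 19169 genes and 13432 cells. The methods state a larger number of retained cells, and no mitochondrial gene is listed, so that filter could not be repeated.

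The log was undone and each cell divided by the value of 1 UMI. Of 29528482 values, 33 lay over 0.1 UMI from a whole number, and on simulated data the step returned 500 of 500 cells. UMIs were summed per class and library (numpy 2.4.6, scipy 1.17.1). Ratios are shown for genes with at least 30 UMIs, past 2-fold counting as called, with Poisson, binomial (Clopper-Pearson) and exact ratio intervals. A gene at 0 in a library was set to 3 UMIs. Thinned shares use 1000 UMIs per cell. No test was run with 1 library per genotype. Named genes were those of the gene lists, the 25 leading in B cells and the 10 highest and 10 lowest in KO over WT; single cells were added after their values were seen. The members and lists were chosen with earlier results of these data known. Alternatives changed the marker number, the absent genes, depth, thinning, doublets by Scrublet (scanpy 1.11.5), the UMI minimum, the mean over cells, the 5 deepest cells and the immunoglobulin totals. The genes Fcrl5, Ighe, Ighg1, Ighg2a, Ighg2c, Ighg3, Iglc4, Mx1, Rag1 and Rag2 of the lists are not analysed here. Values of 4 further genes of the lists are not reported here, though they stay in the list counts.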

Additional observations from a re-analysis of the deposited data

How the results depend on the processing

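With 1 library per genotype, leaving out a replicate was not possible, and intervals cover counting error only. No paired analysis was possible because each genotype is a single library and no result comes from a test. The number of B cells ran from 60 (all 3 marker genes) to 124 (at least 1). The KO minus WT share kept its sign without a gene required absent (0.171 points), at 1000 UMIs or more, without Scrublet doublets (none of the members was called) and in cells with Ighm. It turned to -0.0483 with all 3 marker genes, -0.130 with at least 1 and -0.0145 after thinning, within counting error. The count of genes at least 2-fold higher in KO, 47, became 75 by the mean over cells, 285 at 10 UMIs or more (of 4147 genes), 11 at 100 or more (of 328 genes) and 87 without immunoglobulin genes in the totals. The count of genes lower in KO, 145, became 60 by the mean over cells, 25 with all 3 marker genes, 28 without the 5 deepest cells of each library, 50 in cells with Ighm, 726 at 10 UMIs or more, 11 at 100 or more and 59 without immunoglobulin genes in the totals. The sign of log2 KO over WT turned for Cd79a (0.10 with all 3 marker genes, 0.0186 with Ighm), Igkc (-0.27 without the deepest cells, -0.10 with Ighm), Cd74 (0.0428 with all 3 marker genes, 0.11 with Ighm), Ly6d (0.30 with all 3 marker genes), Cxcr4 (0.0258 without the deepest cells) and the B cell receptor signaling median (0.14 with all 3 marker genes, 0.12 with Ighm). It also turned for Ms4a1, Ccr7 and Fos, whose intervals included 0: Ms4a1 (-0.13) ran up to 0.54 with all 3 marker genes, Ccr7 (-0.42) to 0.13 with Ighm and Fos (-0.13) to 0.20 with Ighm. The settings with all 3 marker genes, without the deepest cells and with Ighm leave out the Igha cells. The mean over cells keeps them at the weight of any other cell, and the median log2 over all genes then moved from -0.31 to -0.04. The cause of each change was not tested. The MHC class II median stayed above 0 in every alternative run.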

Other observations

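Ighm was not read in B cells alone. Among 1942 C1qa cells, the macrophage class, 941 held Ighm (48.5%), and after thinning to 1000 UMIs 16.4% did. The share was 44.3% in WT and 51.9% in KO. Igkc was read in 26 of the same cells (1.34%), and Cd79a had 7 UMIs in all of them. In 924 C1qa cells Ighm was present without Igkc, and no C1qa cell held more than 11 Ighm UMIs. Dendritic cells held Ighm in 30.9% and Cdh5 cells in 0.711%. In B cells the sums were 1201 Ighm UMIs and 26731 Igkc UMIs. Most of the Igkc UMIs lay in the 2 Igha cells, and the 82 cells with Ighm held 2309. Ighm by itself therefore did not mark B cells in these libraries. Ighd had 245 UMIs in B cells and 30 in C1qa cells.

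Igkc was read more often outside B cells in KO than in WT. In Cdh5 cells it was present in 3 of 1817 WT cells (0.165%) and 30 of 1838 KO cells (1.63%), and in C1qa cells in 0.114% and 2.35%. In Pdgfra cells it was present in 0 of 1327 WT cells and 38 of 1737 KO cells (2.19%). The KO library is also the library with the 5 cells of high Jchain, and the part of these cells in the Igkc of other classes was not tested.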
